A study of Mus musculus with 6 samples.

Results

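Endoplasmic-reticulum-associated degradation (ERAD) was examined through 10 genes that the transcription factor XBP1 is known to control, Edem1, Edem2, Os9, Dnajb9, Sdf2l1, Sel1l, Syvn1, Herpud1, Derl1 and Derl2. The genes were chosen by name, by a rule that uses no measured value, though with earlier results of these data known. All 10 were among the 24517 genes listed in the count tables, and all 10 passed the filter on low counts that left 16347 genes for testing. Each gene was measured by RNA sequencing of mouse colon in 3 Nsd2fl/fl and 3 Nsd2ΔIE libraries. The Nsd2ΔIE mice lacked NSD2, the enzyme behind much of the dimethylation of histone H3 at lysine 36, in cells that express Villin-Cre, which is active in the intestinal epithelium and not in the muscle, nerve, stromal or immune cells of the colon wall. The Nsd2fl/fl mice carried the floxed alleles and served as controls. Animals of both groups were on a C57BL/6J background and had eaten HFCD, a diet rich in fat and cholesterol, whose length the labels give as 16 weeks, so that no library came from a mouse on normal diet. The labels give no age and no sex, and the methods of the study describe male littermates that entered the diet as young adults and a somewhat longer feeding. Each library is one labelled sample, and since the labels do not say that each came from its own animal, p-values measure the spread between these samples.

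Proteins that fail to fold in the endoplasmic reticulum (ER) are recognized by lectins, mannosidases and chaperones of the ER lumen, passed to a ubiquitin ligase complex in the ER membrane, drawn back into the cytosol and degraded by the proteasome. When unfolded proteins build up, the ER sensor ERN1 (also called IRE1) splices Xbp1 mRNA, and the resulting transcription factor raises genes for this disposal route along with genes for folding and secretion. Secretory cells of the colon, such as goblet cells and plasma cells, carry a heavy protein load in the ER and depend on this pathway.

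The 6 libraries held 38041832 to 38604680 counts, and the 10 ERAD genes held 1371 to 9670 counts each per library, so that counting error was small beside the differences between libraries. The control libraries held 1840, 2091 and 2455 counts of Nsd2 itself, and the Nsd2ΔIE libraries 972, 914 and 1139, a log2 fold change of -1.23 ± 0.16 (SE; edgeR unadjusted p = 0.000133, adjusted p = 0.302), in the direction that the labels give. Xist, the RNA of the inactive X chromosome, was at 0 to 4 counts in controls and 21217 to 24234 in the Nsd2ΔIE libraries, and 4 Y-linked genes summed to 5058 to 6110 against 0 to 1, so that in these libraries genotype and the pattern of sex-linked genes cannot be told apart. All 10 ERAD genes lie on autosomes, which does not separate genotype from sex in their levels. The sex-linked pattern of the Nsd2ΔIE libraries differs from the male littermates that the methods of the study describe. Hoxb13, a homeobox gene of the distal colon, ranged from -0.40 to 8.51 log2 CPM and was low in replicate 2 of both groups. Markers of colon epithelium were present in every library, with Epcam at 1233 to 1874 CPM. CPM here means counts scaled to a common library total, with TMM factors for library composition.

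The ERAD genes lay a little lower in Nsd2ΔIE than in Nsd2fl/fl colon, where in bulk tissue fewer cells of a type and less RNA per cell cannot be told apart. The fitted log2 fold change (Nsd2ΔIE over Nsd2fl/fl) was below 0 for all 10 genes, from -0.03 for Herpud1 to -0.70 for Sdf2l1. However, Herpud1 went above 0 when libraries were scaled by upper-quartile factors, by totals alone or as FPKM. It also did so when replicate 1 or 3 of Nsd2fl/fl or replicate 2 or 3 of Nsd2ΔIE was left out. Among all genes tested, 56.3% were fitted below 0. The median over the 10 genes was -0.26, against -0.04 over all genes. Edem1, Sel1l and Syvn1 were called lower at the call rule that the study used, in which the unadjusted p lies under 0.05 and the fitted log2 fold change beyond 0.322 in size. This rule was met by 2.21% of all genes in this direction and 8.05% in the other. None of the 10 genes reached an adjusted p under 0.05 in edgeR, a level that 0.0306% of all genes reached, and none did in DESeq2 or limma-voom. At an unadjusted p under 0.05 alone, in either direction, edgeR counted 3 of the 10 and 11.1% of all genes. The 3 Nsd2ΔIE libraries lay below all 3 Nsd2fl/fl libraries for 5 of the 10 genes in CPM, where 7.28% of all genes did so, and for 2 of the 10 in FPKM, where 1.96% did. With 3 libraries a group, an exact permutation test of a single gene, two-sided, cannot go below p = 0.1.

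**Figure D1:**
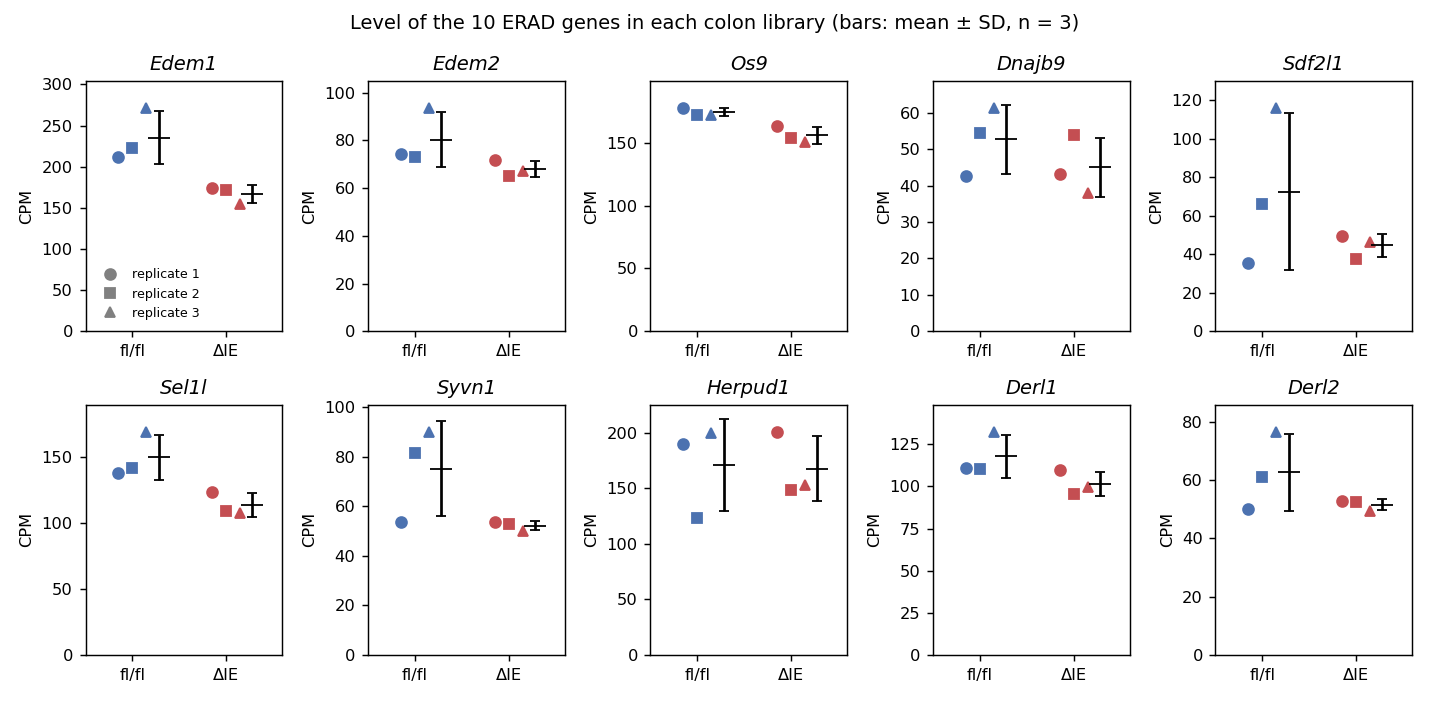
Level of each ERAD gene in CPM (linear axes from 0) in the 3 Nsd2fl/fl libraries (blue) and the 3 Nsd2ΔIE libraries (red), with the mean and SD of each group beside the points and the marker shape giving the replicate number. Edem1, Edem2, Sel1l, Derl1 and Os9 show no overlap between the groups, and Nsd2fl/fl replicate 3 is the highest of the 6 libraries for 8 of the 10 genes.

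The promoters of these genes were searched for elements through which the unfolded protein response is known to act. The elements were the ER stress response element ERSE (CCAAT, 9 bases of any kind, then CCACG), bound by ATF6 and XBP1 with NF-Y, the related ERSE-II (ATTGG, 1 base, then CCACG), the core of the XBP1-bound UPRE (TGACG directly followed by TGG), and the short motif ACGTG, which the UPRE core contains and which can overlap the end of an ERSE-II. Both strands were searched in RefSeq windows of assembly GRCm38.p6 that run from 250 bases before to 50 bases after each gene's start. Of the 10 genes 9 matched the table, all but Derl1. The 250 bases before the start are given here for the genes with an exact match, Syvn1 and Herpud1, and for the other called genes, Edem1 and Sel1l. Capitals mark the fixed letters of the exact match in Syvn1 and Herpud1, and in Edem1 and Sel1l the whole stretch that matched ERSE or ERSE-II on either strand with 1 mismatch.
Syvn1 promoter, chr19:6046326-6046575, plus strand: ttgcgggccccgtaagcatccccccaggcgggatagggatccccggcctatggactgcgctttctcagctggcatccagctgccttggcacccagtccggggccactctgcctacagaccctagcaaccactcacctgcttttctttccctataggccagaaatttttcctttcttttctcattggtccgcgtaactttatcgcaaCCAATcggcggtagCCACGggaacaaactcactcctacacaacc
Herpud1 promoter, chr8:94386179-94386428, plus strand: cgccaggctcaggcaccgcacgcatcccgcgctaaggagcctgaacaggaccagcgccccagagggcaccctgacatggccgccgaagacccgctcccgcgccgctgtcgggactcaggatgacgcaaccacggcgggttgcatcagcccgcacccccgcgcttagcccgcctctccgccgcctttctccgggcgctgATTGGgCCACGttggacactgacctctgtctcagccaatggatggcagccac
Edem1 promoter, chr6:108828391-108828640, plus strand: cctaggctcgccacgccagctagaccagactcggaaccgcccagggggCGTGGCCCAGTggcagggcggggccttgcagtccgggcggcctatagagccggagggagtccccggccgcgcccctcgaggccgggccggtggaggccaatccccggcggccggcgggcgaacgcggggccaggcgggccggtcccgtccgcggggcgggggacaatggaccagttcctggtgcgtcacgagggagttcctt
Sel1l promoter, chr12:91849158-91849407, minus strand: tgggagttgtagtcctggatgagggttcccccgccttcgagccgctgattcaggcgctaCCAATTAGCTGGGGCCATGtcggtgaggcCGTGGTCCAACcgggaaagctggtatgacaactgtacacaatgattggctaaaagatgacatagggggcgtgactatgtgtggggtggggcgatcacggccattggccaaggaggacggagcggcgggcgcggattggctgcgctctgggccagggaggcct
The Syvn1 promoter held the exact ERSE 44 to 26 bases before the start, and 0.137% of the 27025 genes in the table had such a match. The Herpud1 promoter held the exact ERSE-II 52 to 42 bases before the start, a match found in 0.0444% of all genes. With 1 mismatch allowed, a search added after the exact matches were seen, ERSE-II matched in 5 of the 9 genes (Edem1, Sel1l, Syvn1, Herpud1 and Sdf2l1) against 1.31% of all genes, and ERSE in 4 of the 9 (Sel1l, Syvn1, Derl2 and Herpud1) against 1.72%. The UPRE core was in 0 of the 9 windows and in 0.714% of all genes. ACGTG was found in 4 of the 9 (Edem2, Herpud1, Os9 and Dnajb9) and in 21.8% of all genes. Because the 10 genes were chosen as known targets of XBP1, matches above the share of all genes were likely from the start. The matches describe the promoters and are no evidence about these libraries. The window of Edem1 lies inside the span of the gene, at a start other than the outermost. Derl2 had 2 windows, and its ERSE match with 1 mismatch was in the inner one, inside the span of the gene, and not in the outer one. Of the 2 genes with an exact element, Syvn1 was called lower in Nsd2ΔIE and Herpud1 was not, and the difference between them was not tested.

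The first step of ERAD is the recognition of misfolded glycoproteins, to which Edem1, Edem2 and Os9 contribute. Edem1 (chr6:108824045-108859356), an ER mannosidase-like protein that hands glycoproteins over for degradation, had 212, 223 and 271.5 CPM in the Nsd2fl/fl libraries and 174, 171 and 154 CPM in the Nsd2ΔIE libraries. Every Nsd2ΔIE library was below every control. The mean was 235 ± 31.8 (SD, n = 3) in Nsd2fl/fl and 167 ± 10.9 (SD, n = 3) in Nsd2ΔIE, or 70.8% of the control level. On the log2 scale this was a fitted change of -0.50 ± 0.14 (SE; edgeR unadjusted p = 0.0089, adjusted p = 0.312). Edem1 was the one gene of the 10 that stayed below 0 with an unadjusted p under 0.05 in all 16 alternative fits, where its log2 fold change ranged from -0.57 to -0.35 and its adjusted p from 0.0633 to 0.990.

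Edem2 (chr2:155701673-155729475), the mannosidase that takes the first mannose from the glycan of such proteins, had 74.5, 73.0 and 93.7 CPM in the Nsd2fl/fl libraries and 71.6, 65.0 and 67.1 CPM in the Nsd2ΔIE libraries. The groups did not overlap, but the gap between the highest Nsd2ΔIE and the lowest control library was small, and in FPKM the groups did overlap. Its log2 fold change was -0.24 ± 0.13 (SE) and was not called (edgeR unadjusted p = 0.0995, adjusted p = 0.542). Os9 (chr10:127094259-127121160), a lectin that binds trimmed glycoproteins and delivers them to the SEL1L-HRD1 complex, had 178, 172 and 172 CPM in the Nsd2fl/fl libraries and 163, 154 and 150.2 CPM in the Nsd2ΔIE libraries. Os9 was the steadiest of the 10 genes, with a 1.18-fold span over all 6 libraries, and the one whose highest library was Nsd2fl/fl replicate 1. The groups did not overlap in CPM, and the log2 fold change of -0.16 ± 0.10 (SE) was not called (edgeR unadjusted p = 0.153, adjusted p = 0.605).

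Chaperones of the ER lumen keep ERAD clients soluble. Dnajb9 (chr12:44205897-44210068), also called ERdj4, a co-chaperone of BiP that also restrains ERN1, had 42.6, 54.4 and 61.4 CPM in the Nsd2fl/fl libraries and 43.4, 53.9 and 37.9 CPM in the Nsd2ΔIE libraries. The groups overlapped over most of their range, and the log2 fold change was -0.23 ± 0.19 (SE; edgeR unadjusted p = 0.259, adjusted p = 0.688). Sdf2l1 (chr16:17130138-17132383), an ER protein that works with the BiP co-chaperone ERdj3, had 35.6, 66.0 and 116 CPM in the Nsd2fl/fl libraries and 49.5, 37.8 and 46.6 CPM in the Nsd2ΔIE libraries. Both its lowest and its highest library were controls, a 3.26-fold span within that group against 1.31-fold among the Nsd2ΔIE libraries. The fitted log2 fold change of Sdf2l1 was the largest of the 10 in size and also the least certain, -0.70 ± 0.39 (SE; edgeR unadjusted p = 0.119, adjusted p = 0.570). Without Nsd2fl/fl replicate 3 it was -0.18, and without Nsd2fl/fl replicate 1 it was -1.03 and passed the unadjusted threshold.

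The membrane complex of ERAD is built on the ubiquitin ligase HRD1, the product of Syvn1, and its adaptor SEL1L. Sel1l (chr12:91806043-91849157), which keeps HRD1 stable and connects it to the lumen, had 138, 142 and 169 CPM in the Nsd2fl/fl libraries and 124, 109 and 108 CPM in the Nsd2ΔIE libraries. The groups did not overlap in CPM or in FPKM. The mean was 149.8 ± 17.1 (SD, n = 3) against 114 ± 9.01 (SD, n = 3), or 75.8% of the control level, and the log2 fold change was -0.40 ± 0.13 (SE; edgeR unadjusted p = 0.0167, adjusted p = 0.344). Sel1l had an unadjusted p under 0.05 in 11 of the 16 alternative fits.

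Syvn1 (chr19:6046576-6053718) had 53.5, 81.6 and 90.1 CPM in the Nsd2fl/fl libraries and 53.7, 52.6 and 49.99 CPM in the Nsd2ΔIE libraries. The 3 Nsd2ΔIE libraries and Nsd2fl/fl replicate 1 were nearly level, while the other two controls stood well above them, so that the groups overlapped. The mean was 75.1 ± 19.2 (SD, n = 3) against 52.1 ± 1.92 (SD, n = 3), or 69.4% of the control level. The fitted log2 fold change was -0.53 ± 0.19 (SE; edgeR unadjusted p = 0.0314, adjusted p = 0.404), and 8 of the 16 alternative fits kept an unadjusted p under 0.05. Syvn1 overlaps Mrpl49, which had up to 1705 counts, and how reads of overlapping genes and strands were assigned is not given in the sources used here, so its counts are uncertain to that extent.

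Herpud1 (chr8:94386429-94395371), which encodes the membrane scaffold HERP that joins HRD1 to its partners, had 189.7, 124 and 200.2 CPM in the Nsd2fl/fl libraries and 201, 148 and 153 CPM in the Nsd2ΔIE libraries. Its highest library was Nsd2ΔIE replicate 1 and its lowest Nsd2fl/fl replicate 2, and the ranges of the groups overlapped, that of the controls reaching lower. The log2 fold change was -0.03 ± 0.22 (SE; edgeR unadjusted p = 0.893, adjusted p = 0.968), and its sign turned in 8 of the 16 alternative fits.

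Derl1 and Derl2 encode derlins, rhomboid-like membrane proteins that help to draw clients out of the ER. Derl1 (chr15:57869502-57892418) had 110.8, 110.2 and 133 CPM in the Nsd2fl/fl libraries and 109.5, 95.3 and 99.7 CPM in the Nsd2ΔIE libraries, and Nsd2ΔIE replicate 1 came within 1 CPM of the lowest control. Derl2 (chr11:71007440-71019841) had 50.2, 61.2 and 76.7 CPM in the Nsd2fl/fl libraries and 52.9, 52.5 and 49.3 CPM in the Nsd2ΔIE libraries, with Nsd2fl/fl replicate 1 inside the Nsd2ΔIE range. Neither was called, with log2 fold changes of -0.22 ± 0.12 (SE; edgeR unadjusted p = 0.117, adjusted p = 0.566) for Derl1 and -0.28 ± 0.16 (SE; edgeR unadjusted p = 0.128, adjusted p = 0.578) for Derl2. Derl2 overlaps Mis12, which had up to 1342 counts, so its counts carry the same doubt as those of Syvn1.

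**Figure D2:**
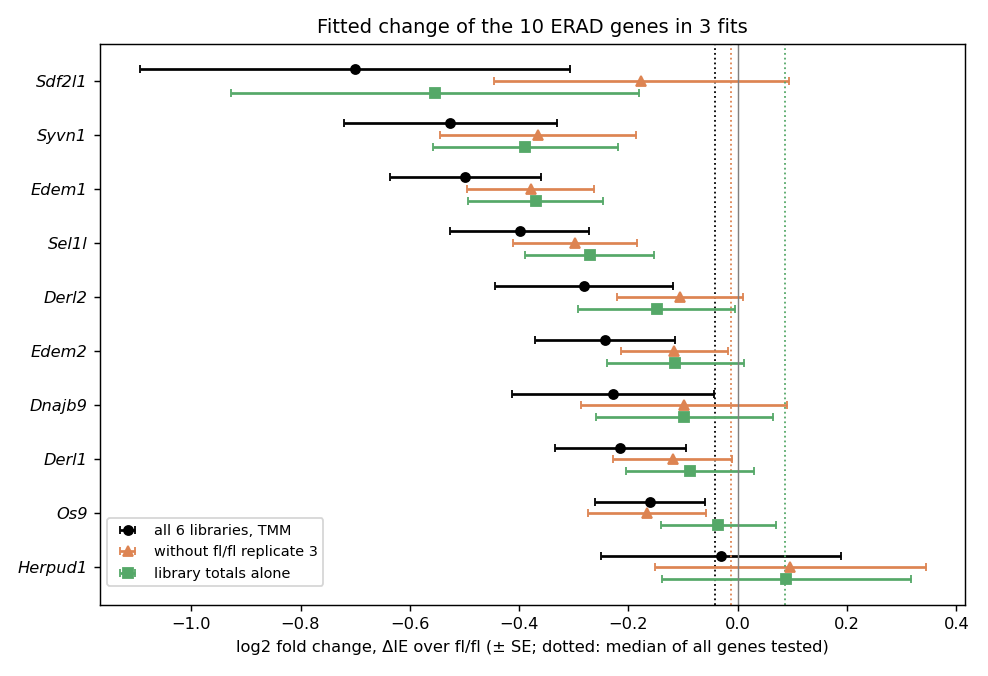
Fitted log2 fold change (Nsd2ΔIE over Nsd2fl/fl, horizontal axis) with its SE for each ERAD gene, from all 6 libraries with TMM factors (black circles), without Nsd2fl/fl replicate 3 (orange triangles) and with library totals alone (green squares). Dotted lines mark the median of all genes tested in each fit. Sdf2l1 moves from -0.70 to -0.18 without Nsd2fl/fl replicate 3, and Edem1 lies below 0 by more than its SE in all 3 fits. Herpud1 is below 0 with all 6 libraries and TMM factors, and above 0 without Nsd2fl/fl replicate 3 and with library totals alone.

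Per gene length, in FPKM, the 10 genes differed widely in level. Herpud1 was the highest, at 80.7 ± 21.4 FPKM (SD, n = 3) in Nsd2fl/fl and 85.8 ± 14.0 FPKM in Nsd2ΔIE, followed by Sdf2l1 at 61.9 ± 33.3 and 42.1 ± 6.18 FPKM. Derl2, at 14.1 ± 2.57 and 12.7 ± 0.136 FPKM, Syvn1, at 19.4 ± 4.22 and 14.8 ± 0.199 FPKM, and Sel1l, at 22.7 ± 2.23 and 18.8 ± 1.27 FPKM, were the lowest. In between, in order of their Nsd2fl/fl means, came Edem1 at 38.01 ± 4.36, Derl1 at 35.8 ± 3.53, Edem2 at 33.5 ± 4.43, Os9 at 31.2 ± 2.14 and Dnajb9 at 27.0 ± 3.85 FPKM. From Edem1 to Os9, neighbours in this order differed by less than the SD of at least 1 of them, and the steps from Os9 to Dnajb9 and from Dnajb9 to Sel1l were larger than that. In Nsd2ΔIE the same genes were at 29.4 ± 1.119, 33.7 ± 2.39, 30.9 ± 1.61, 30.5 ± 0.897 and 25.2 ± 4.02 FPKM, so that the mean of Edem1 was below those of Derl1, Edem2 and Os9. The gaps from Edem1 to Edem2 and to Os9 were smaller than the SD of at least 1 gene of each pair. The gap to Derl1 was larger than both SDs.

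The libraries differed within the groups in a way that most of the 10 genes shared. Nsd2fl/fl replicate 3 was the highest library for 8 of the 10 genes, as it was for 23.9% of all genes tested, and Nsd2ΔIE replicate 3 was the lowest for 6. Summed over the 10 genes, the level was 1085, 1107 and 1384 CPM in the Nsd2fl/fl libraries and 1043, 940.0 and 916 CPM in the Nsd2ΔIE libraries. The sums did not overlap, but Nsd2fl/fl replicate 1 was closer to Nsd2ΔIE replicate 1 than to Nsd2fl/fl replicate 3. For 5 of the 10 genes Nsd2fl/fl replicate 1 was at or below the highest Nsd2ΔIE library. The fold range among controls was wider than that among Nsd2ΔIE libraries for 9 of the 10 genes, with medians of 1.36 and 1.14, and it was wider for 73.8% of all genes.

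As a description over 6 libraries, which share their scaling and a difference between groups, the log2 CPM of each gene was compared with the mean of the other 9. Pearson's r was 0.85 to 0.958 for Edem1, Edem2, Sel1l, Syvn1, Derl1, Derl2 and Sdf2l1, 0.684 for Dnajb9, 0.615 for Os9 and 0.187 for Herpud1. Without Nsd2fl/fl replicate 3, r stayed at 0.754 to 0.879 for Edem1, Edem2, Sel1l, Syvn1, Derl1, Derl2 and Os9, and was 0.418 for Sdf2l1, 0.327 for Dnajb9 and -0.438 for Herpud1. Herpud1 thus stood apart from the other members with and without that library.

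**Figure D3:**
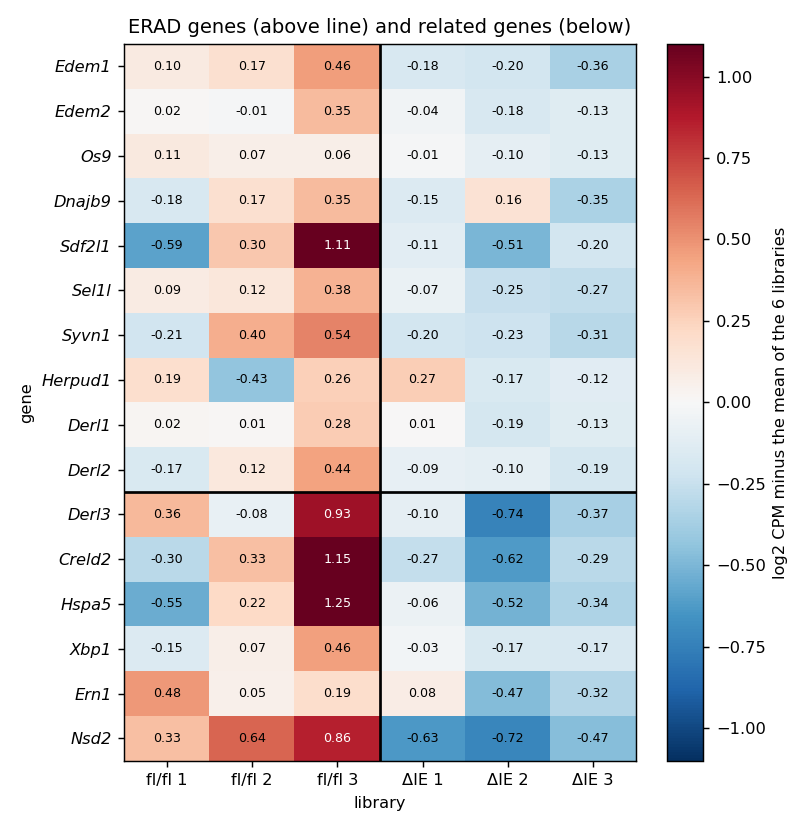
Log2 CPM minus the gene's mean over the 6 libraries (color and printed value) for the 10 ERAD genes above the line and for related genes below it, with the Nsd2fl/fl libraries left and the Nsd2ΔIE libraries right of the line. Sdf2l1 and Creld2 reach 1.11 and 1.15 in Nsd2fl/fl replicate 3, with Hspa5 higher still, and all 3 are below their means in Nsd2fl/fl replicate 1, while Ern1 is highest in Nsd2fl/fl replicate 1.

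The genes that act upstream of ERAD were read beside it. Ern1, the sensor, had 74.2, 55.3 and 60.9 CPM in the Nsd2fl/fl libraries and 56.3, 38.4 and 42.6 CPM in the Nsd2ΔIE libraries, and it was called lower at the unadjusted threshold with a log2 fold change of -0.47 ± 0.18 (SE; edgeR unadjusted p = 0.0372, adjusted p = 0.420), a call that was lost with upper-quartile factors, with totals alone, in FPKM, and without replicate 1 or 3 of Nsd2fl/fl or replicate 2 or 3 of Nsd2ΔIE, and over these fits the value ranged from -0.50 to -0.31. Xbp1 had 334, 389 and 508 CPM against 362, 329 and 329 CPM, a log2 fold change of -0.27 ± 0.18 (SE; edgeR unadjusted p = 0.178, adjusted p = 0.631) that was not called. Total Xbp1 counts do not separate its spliced from its unspliced form, so that the activity of the factor was not measured. Hspa5, which encodes BiP, the main chaperone of the ER lumen, had 569, 968 and 1982 CPM against 796, 579 and 659 CPM, with a log2 fold change of -0.79 ± 0.44 (SE; edgeR unadjusted p = 0.115, adjusted p = 0.562) that was -0.17 without Nsd2fl/fl replicate 3. Xbp1 and Hspa5 were highest in Nsd2fl/fl replicate 3, as were 8 of the 10 ERAD genes, and Ern1 in Nsd2fl/fl replicate 1.

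Paralogs of the ERAD genes were also measured. Derl3, the derlin of professional secretory cells, had 10.7, 7.88 and 15.9 CPM in the Nsd2fl/fl libraries and 7.77, 4.996 and 6.46 CPM in the Nsd2ΔIE libraries, with no overlap. It was called lower at the unadjusted threshold, with a log2 fold change of -0.84 ± 0.30 (SE; edgeR unadjusted p = 0.0273, adjusted p = 0.386), and the call was lost with totals alone, in FPKM, and without Nsd2fl/fl replicate 3 or Nsd2ΔIE replicate 2 or 3, where the value ranged from -0.85 to -0.53. Edem3, a further mannosidase of the EDEM family, and Herpud2 had log2 fold changes of -0.13 ± 0.23 (SE; edgeR adjusted p = 0.844) and -0.01 ± 0.15 (SE; edgeR adjusted p = 0.988), and neither was called. Sdf2, the paralog of Sdf2l1, had 86.2, 97.0 and 89.3 CPM against 82.8, 79.1 and 78.6 CPM and a log2 fold change of -0.18 ± 0.10 (SE; edgeR adjusted p = 0.546).

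Other genes of ERAD were taken from a list of 48, among them the lectin Erlec1, the segregase Vcp with its cofactors, and further ubiquitin ligases and conjugating enzymes. One gene of the 48, Derl3, was called lower and 0 were called higher, near the 2.21% of all genes called lower. The median log2 fold change of the 48 was -0.09, closer to the -0.04 of all genes than the -0.26 of the 10 members. The 48 were not sorted by control through XBP1, so the 2 lists do not separate XBP1-driven from other ERAD genes. The Nsd2ΔIE libraries lay below all controls for 10 of the 48 genes, where 7.28% of all genes did so, and above all controls for 1, where 11.4% did so. Relative to the median of all genes, the 48 lay at -0.05 both with TMM factors, where 35 of them were below it, and with totals alone, where 34 were.

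XBP1 also drives genes of translocation, folding and secretion. Of 26 such genes 25 were fitted below 0 with TMM factors, where 56.3% of all genes were, with a median of -0.31. With totals alone 20 were below 0, and under both scalings 24 lay below the median of all genes. One of the 26, Creld2, an ER-stress-induced protein of the lumen, was called lower, where 2.21% of all genes were. It had 60.7, 94.1 and 165 CPM against 62.1, 48.5 and 60.9 CPM and a log2 fold change of -0.90 ± 0.35 (SE; edgeR unadjusted p = 0.0364, adjusted p = 0.419). The Creld2 call was lost with totals alone, in FPKM, and without Nsd2fl/fl replicate 3, where its value was -0.43, or any 1 of the Nsd2ΔIE libraries. Nsd2fl/fl replicate 3 was the highest library for 21 of the 26 genes, and without it the median was -0.10 and no gene was called. The median of the 10 ERAD genes without that library was -0.14, and Edem1 was still called lower. In the PERK and ATF4 arm of the unfolded protein response, which XBP1 does not drive, 0 of 10 genes were called, and their median was -0.11 with TMM factors, 0.03 with totals alone and -0.18 without Nsd2fl/fl replicate 3, where 9 of the 10 were below 0.

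The colon wall holds many cell types, whose markers were read beside the ERAD genes. Markers of the epithelium, in which Nsd2 was deleted, summed to 14200 to 23190 CPM in Nsd2fl/fl and 13610 to 15400 CPM in Nsd2ΔIE. Of these 12 markers 11 were fitted below 0 and 1, Elf3, was called lower, with a median log2 fold change of -0.28 beside the -0.26 of the ERAD genes. Without Nsd2fl/fl replicate 3 the median was -0.32 for these markers and -0.14 for the ERAD genes. That library was the highest for 1 of the 12 markers. Goblet cell markers summed to 30020 to 59030 CPM against 20170 to 32580 CPM, with 8 of 11 fitted below 0, 1 called lower (Retnlb) and a median of -0.13. Clca1 made up 32.6% of the goblet sum, and 6 of the 11 genes were highest in Nsd2fl/fl replicate 3. Muc2 was not among them, at 6340, 16260 and 5176 CPM in Nsd2fl/fl and 4901, 9133 and 11300 CPM in Nsd2ΔIE. Markers of B and plasma cells summed to 1298 to 2472 CPM against 1076 to 1555 CPM, of which Jchain made up 92.9%, and 12 of 12 were fitted below 0 and 0 called, with a median of -0.69 that was -0.29, with 10 of 12 below 0, without Nsd2fl/fl replicate 3. For 11 of these 12 genes the highest library was Nsd2fl/fl replicate 3, the library that was also highest for 8 of the 10 ERAD genes. Smooth muscle markers went the other way, at 1626 to 4507 CPM in Nsd2fl/fl and 5590 to 12020 CPM in Nsd2ΔIE, with 9 of 10 called higher and a median of 1.24, and of 13 enteric nervous markers 10 were called higher, with sums of 124 to 156 CPM against 196 to 259 CPM. No marker measured in these 5 lists was at 0 in any library, and Igha, Ighm and Igkc were not among the gene symbols listed. The part of these cell types in the levels of the ERAD genes was not tested.

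**Figure D4:**
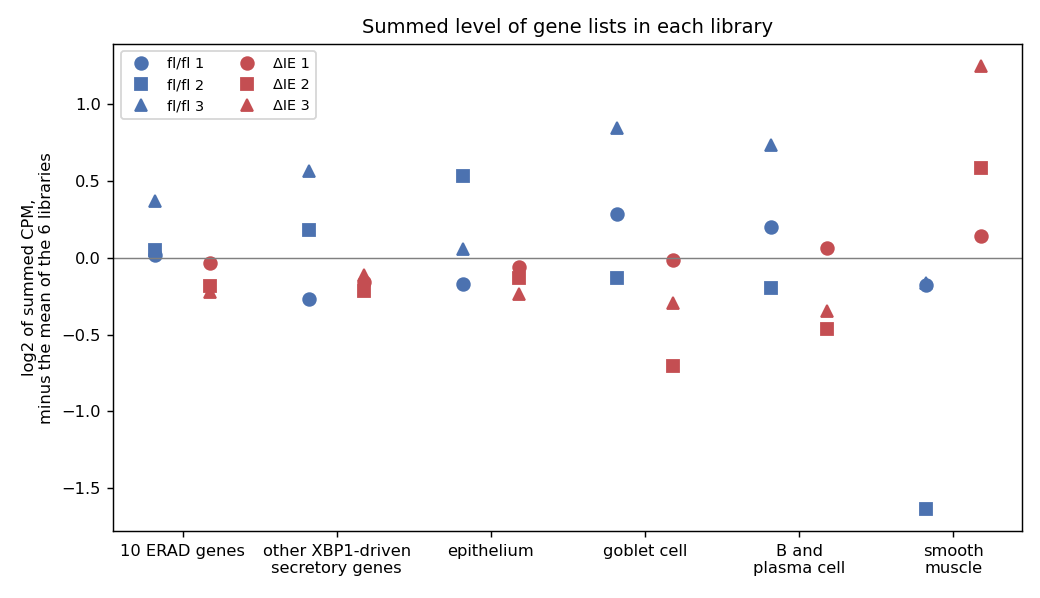
Summed CPM of 6 gene lists in each library, as log2 minus the mean of the 6 libraries (vertical axis), with blue for Nsd2fl/fl, red for Nsd2ΔIE and the marker shape for the replicate number. Nsd2fl/fl replicate 3 is highest for the ERAD genes, the other XBP1-driven genes, the goblet list and the B and plasma cell list, and smooth muscle markers are highest in the 3 Nsd2ΔIE libraries.

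Cut at the midpoint of its range, Hoxb13 split the libraries into 4 of high and 2 of low level, each side with both genotypes. The high side is uneven, since Nsd2ΔIE replicate 3, at 4.71 log2 CPM, lay next to the midpoint and the other libraries of that side were at 8.28 to 8.51. Over the whole count table Nsd2ΔIE replicate 3 was nearer to Nsd2ΔIE replicate 2 (chi-square per degree of freedom 58.97) than to Nsd2ΔIE replicate 1 (141.1). Among the 4 high libraries all 10 ERAD genes had a lower mean log2 CPM in Nsd2ΔIE, with a median difference of -0.31 and a range of -0.55 to -0.15. With Nsd2ΔIE replicate 3 left out of that side, a check added after the data were seen that leaves 1 Nsd2ΔIE library and no test, 9 of the 10 were lower, with a median of -0.23, and Herpud1 was 0.05 higher. Between the 2 low libraries, 1 of each genotype and thus without a test, 9 of the 10 genes were lower in Nsd2ΔIE, with a median difference of -0.22, and Herpud1 was 0.26 higher. With Nsd2ΔIE replicate 3 counted as low, that side held 1 Nsd2fl/fl and 2 Nsd2ΔIE libraries, so that the sides were uneven between genotypes. There 9 of the 10 genes were lower in Nsd2ΔIE, with a median difference of -0.27, and Herpud1 was 0.29 higher. Edem1 differed by -0.55 on the high side and -0.38 on the low side, Sel1l by -0.41 and -0.38, and Syvn1 by -0.42 and -0.63. With the split at the midpoint as a term of the fit, Edem1, Sel1l and Syvn1 were called lower at the unadjusted threshold, where 2.96% of all genes were. That term coded Nsd2ΔIE replicate 3 as high, and no fit with it coded as low was run.

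How the libraries were scaled set the level of the zero line. With library totals alone the median of all genes was 0.09 in place of -0.04, and relative to this median the ERAD genes lay at -0.22 under both scalings, with 9 of the 10 below it. Over the other fits this offset ranged from -0.35 without Nsd2fl/fl replicate 1 to -0.13 without Nsd2fl/fl replicate 3. The number of ERAD genes called lower depended on single libraries, since it was 5 without Nsd2fl/fl replicate 1 (Edem1, Sel1l, Syvn1, Derl2 and Sdf2l1, against 4.48% of all genes) and 1 without Nsd2fl/fl replicate 3 (Edem1, against 2.68% of all genes). Leaving out replicate 2 of Nsd2fl/fl or replicate 1 of Nsd2ΔIE gave 2 (Edem1 and Sel1l, against 3.57% and 3.72% of all genes), and 1 without Nsd2ΔIE replicate 2 or 3 (Edem1, against 1.17% and 0.879% of all genes).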

How the data were processed

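RNA was extracted from colon with TRIzol and sequenced. The submitters' processing notes name fastp, HISAT2, HTSeq, R 3.2.0 and the build mm10, and the annotation and the use of strand are not given in the sources used here. For each library the authors deposited whole-number read counts per gene symbol and FPKM values per gene symbol. FPKM is the count scaled to gene length and library total, and the deposited FPKM values fitted the deposited counts and their column totals, with one length per gene to within 0.0783 bases over 17863 genes.

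The counts went into edgeR 4.0.16 under R 4.3.3 (filterByExpr, TMM factors, glmQLFit and glmQLFTest, two-sided, no covariates), and p-values were adjusted over all 16347 genes tested by the Benjamini-Hochberg method. SE was derived from each gene's fitted change and its F statistic. Log2 CPM used a prior count of 2. The call rule of the study asks for an unadjusted p under 0.05 and a log2 fold change beyond 0.322 in size. Totals were 38041832 to 38604680 counts, and no pair of libraries agreed within sampling noise (chi-square per degree of freedom at least 35.5). The lowest value was that of Nsd2fl/fl replicate 1 and Nsd2ΔIE replicate 1, a pair across genotypes. Pairs within Nsd2fl/fl were at 118 to 383, and pairs within Nsd2ΔIE at 58.97 to 218. The fit was checked on simulated counts. Alternatives were other scalings, no filter, DESeq2 1.42.0, limma 3.58.1 (voom, and log2 FPKM with a pseudocount of 1 or 0.1), leaving out each library, a replicate block, the Hoxb13 side (log2 CPM above or below the midpoint of its range) and a fold limit of 1.5.

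The genes and gene lists were chosen with earlier results of these data known. Genes named were the 10 ERAD genes, Nsd2, Ern1, Xbp1, Hspa5, the paralogs Derl3, Edem3, Herpud2 and Sdf2, the called genes of each pathway list, and the 8 other genes most correlated with the mean of the ERAD genes. Hm13 was matched as H13. Lists of markers for colonocytes, stem and proliferating cells, adipocytes, fibroblasts, endothelium, T cells, macrophages and pancreatic acinar cells were also summed. Gene positions and promoters are from RefSeq, assembly GRCm38.p6, the assembly that mm10 represents.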

Additional observations from a re-analysis of the deposited data

How the results depend on the processing

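The median log2 fold change of the 10 ERAD genes stayed below 0 in all 16 alternative fits, and 0 of the 10 genes reached an adjusted p under 0.05 in any of them. The number of ERAD genes called at the unadjusted threshold, 3 with all libraries and TMM factors, was 1 when libraries were scaled by their totals (0.869% of all genes called lower), 1 on FPKM values at a pseudocount of 1 or 0.1 (0.725% and 0.926%) and 0 at a fold limit of 1.5 (1%), and leaving out 1 library at a time gave 1 to 5. It was 1 without Nsd2ΔIE replicate 2, without Nsd2ΔIE replicate 3 or without Nsd2fl/fl replicate 3, each time Edem1, and 5 without Nsd2fl/fl replicate 1. The log2 fold change of Herpud1 turned to 0.035 with upper-quartile factors, 0.088 with totals alone, 0.113 on FPKM values at a pseudocount of 1 and 0.1145 at 0.1, and ranged from -0.218 to 0.0959 when 1 library was left out. The number of genes at an adjusted p under 0.05 was 5 in edgeR, 491 in DESeq2 and 3 to 5 when 1 library was left out. Of all genes called at the unadjusted threshold, 21.5% were lower with TMM factors, 11.3% with upper-quartile factors, 7.64% with totals alone and 7.73% on FPKM values at a pseudocount of 1. The causes of these changes were not tested.

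Replicate numbers were not taken as pairs in the main fit. Deviations of same-numbered libraries from their group means correlated at 0.501 for replicate 1, 0.643 for replicate 2 and -0.166 for replicate 3. With the replicate number as a block, 3 ERAD genes were called, the same genes as without it, the median was -0.25, and 602 genes (3.68%) were called lower in place of 361. Each ERAD gene had at least 1371 counts in every library, and no alternative varied the depth.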

Other observations

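Among 8620 genes of an average log2 CPM of at least 4, the 8 whose log2 CPM was most like the mean of the 10 ERAD genes over the 6 libraries were Cct2, Ubxn4, Sf3a1, Ddx27, Cd55, Hnrnpu, Iars and Mis12, with Pearson's r of 0.986 to 0.997, and 341 genes had an r over 0.9. Ubxn4, a membrane protein that recruits VCP to the ER for ERAD, had 83.5, 88.7 and 107.5 CPM in the Nsd2fl/fl libraries and 85.0, 78.9 and 78.8 CPM in the Nsd2ΔIE libraries, so that only replicate 3 stood clearly above the rest. Cct2, a subunit of the cytosolic chaperonin, had 192, 208 and 246 CPM against 195.5, 185 and 183 CPM. Cd55, a membrane inhibitor of complement, had the largest log2 fold change of the 8, -0.44 ± 0.19 (SE; edgeR adjusted p = 0.452). None of the 8 was called at the unadjusted threshold. Without Nsd2fl/fl replicate 3 their r was 0.937 to 0.992. Mis12 overlaps Derl2 in the genome, and reads of the pair may be shared. With 6 libraries and a shared scaling these values are a description only.

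The remaining marker lists gave these values. Of 9 adipocyte markers 4 were called higher (Fabp4, Retn, Plin4 and Cfd), with a median log2 fold change of 1.64. Of 8 fibroblast markers 4 were called higher (Dcn, Lum, Dpt and Fbln1), with a median of 0.23. Colonocyte markers summed to 3429 to 13850 CPM in Nsd2fl/fl and 5229 to 11830 CPM in Nsd2ΔIE, with 1 of 10 called lower (Ceacam20). In T cell markers 1 of 8 was called higher (Cd8b1), and in the 9 markers of stem and proliferating cells, the 8 of endothelium and the 10 of macrophages 0 were called. Of the pancreatic acinar markers Cela1 alone passed the filter on low counts, and it was not called.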
